A study of Mus musculus with 6 samples.

Results

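A set of 10 genes of the Eph receptor family, Epha2, Epha4, Epha5, Epha7, Epha8, Epha10, Ephb1, Ephb2, Ephb3 and Ephb4, were examined for cytosine methylation in the mouse dentate gyrus. A cytosine was assigned to a gene when it lay between 1 kb upstream of the gene start and the gene end in the GENCODE M21 annotation, read along the strand of the gene. This rule gave 1043 of the 890041 cytosines in the table, in 10 of the 25516 genes with at least 1 site, and it used no measured value. Methylation had been profiled by reduced representation bisulfite sequencing (RRBS), in which DNA is cut at CCGG, short fragments are selected, and bisulfite treatment makes unmethylated cytosines readable as thymines. The 6 libraries came from micro-dissected dentate gyrus of female C57BL/6JRj mice aged 4.5 months, labelled middle-aged, each library from a different mouse. Mice of the ENR group (n = 3) had lived in an enriched environment for 3 months from 6 weeks of age, and mice of the STD group (n = 3) in standard cages, with the same strain, sex and age. The comparison asks whether enrichment was accompanied by other methylation levels at these genes.

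Eph receptors are receptor tyrosine kinases whose ligands, the ephrins, are themselves bound to the membrane of neighbouring cells, so that contact between cells sets off signals in both directions. The A class binds mainly ephrin-A ligands, which are held by a lipid anchor, and the B class mainly ephrin-B ligands, which span the membrane. In the nervous system they guide axons, shape dendritic spines and synapses, and act in the niches of adult neurogenesis, one of which is the dentate gyrus. In mammalian DNA, CpG-rich promoters usually carry little methylation and the bodies of genes carry more. The tissue was a mixture of cell types, so each value is the percent of methylated reads over all of them, and a change within cells cannot be told apart from a change in the mixture.

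The sequences on which the results turn are printed 5' to 3' along the strand of the gene, with positions in GRCm38.p6, the build named mm10 in the labels. CpGs with a value in the table are in capitals. The promoter windows come from RefSeq and were shortened to end at most 30 bases past the GENCODE start. The first 3 show unmethylated promoter cores of an A-class and 2 B-class genes, at chr4:28812881-28813160 (plus strand), chr4:136835963-136836262 (minus) and chr16:21204545-21204784 (plus). CCGG, which reads the same on both strands, occurred 2, 8 and 1 times in them, and 52.6% of 27025 RefSeq promoter windows held it at least once.
Epha7 promoter: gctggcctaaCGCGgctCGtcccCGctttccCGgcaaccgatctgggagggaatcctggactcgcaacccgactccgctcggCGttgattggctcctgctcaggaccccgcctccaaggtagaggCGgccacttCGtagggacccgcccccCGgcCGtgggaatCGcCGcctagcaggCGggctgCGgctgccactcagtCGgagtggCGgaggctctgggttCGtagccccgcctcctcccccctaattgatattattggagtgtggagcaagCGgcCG
Ephb2 promoter: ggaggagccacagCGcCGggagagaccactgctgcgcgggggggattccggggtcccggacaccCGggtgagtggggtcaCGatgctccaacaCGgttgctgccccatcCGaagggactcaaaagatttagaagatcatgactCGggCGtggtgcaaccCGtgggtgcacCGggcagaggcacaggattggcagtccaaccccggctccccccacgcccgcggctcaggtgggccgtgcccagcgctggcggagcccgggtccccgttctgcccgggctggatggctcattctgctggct
Ephb3 promoter: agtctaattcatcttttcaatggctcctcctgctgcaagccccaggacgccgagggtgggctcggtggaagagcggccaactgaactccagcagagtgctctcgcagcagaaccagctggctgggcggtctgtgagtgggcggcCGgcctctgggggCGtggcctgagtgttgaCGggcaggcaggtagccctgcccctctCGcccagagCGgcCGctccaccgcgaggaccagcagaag

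The next window, chr16:21203909-21204195 on the plus strand, lies a short way upstream of the Ephb3 promoter core and held the methylated promoter sites of that gene.
Ephb3 upstream stretch: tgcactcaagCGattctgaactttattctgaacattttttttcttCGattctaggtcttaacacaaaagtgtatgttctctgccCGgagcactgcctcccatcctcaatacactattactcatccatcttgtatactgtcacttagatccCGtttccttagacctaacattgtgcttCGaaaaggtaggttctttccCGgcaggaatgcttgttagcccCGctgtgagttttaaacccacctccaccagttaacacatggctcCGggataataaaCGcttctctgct

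The last 4 windows hold intronic CpGs of Ephb1 and Ephb2 whose values in STD and ENR mice are given below, 3 of them named by rule and 1 chosen after its values were seen. Other sites differed by more. They are chr9:101955036-101955113, chr9:102115381-102115533 and chr9:102301627-102301765 in Ephb1, and chr4:136800550-136800651 in Ephb2, all on the minus strand.
Ephb1 intron, higher in ENR: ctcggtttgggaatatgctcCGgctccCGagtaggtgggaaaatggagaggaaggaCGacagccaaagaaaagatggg
Ephb1 intron, read on both strands: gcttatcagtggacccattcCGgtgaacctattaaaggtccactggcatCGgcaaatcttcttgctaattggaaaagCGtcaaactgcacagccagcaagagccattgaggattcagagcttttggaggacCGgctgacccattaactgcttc
Ephb1 intron, lower in ENR: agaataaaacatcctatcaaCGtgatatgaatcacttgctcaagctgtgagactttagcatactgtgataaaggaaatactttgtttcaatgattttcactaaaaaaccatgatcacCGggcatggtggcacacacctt
Ephb2 intron, lower in ENR: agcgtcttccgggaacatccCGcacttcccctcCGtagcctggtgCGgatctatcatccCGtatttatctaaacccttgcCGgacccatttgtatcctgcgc

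Coverage of the genes was uneven. RRBS reads only fragments between nearby CCGG sites, and what made the coverage uneven was not tested. Ephb2 held the most sites (244) and Epha8 the fewest (35). Promoters, defined here as the 2 kb around the gene start, were covered at 46.7% of their CpGs in Epha2 but at 1.56% in Epha10, where a single site stood for the promoter. Gene bodies, defined as everything more than 1 kb downstream of the start, were covered at between 1.91% of their CpGs in Epha5 and 7.57% in Ephb3. Of the Ephb1 sites, 88 of 156 also lay inside long noncoding RNA or other genes annotated within Ephb1, and 25 of 145 Epha7 sites lay inside Gm11915. All 1043 sites were CpGs in the reference. A total of 176 CpGs were read on both strands, and at the 25 of these with a mean between 20% and 80% the 2 strands of the same CpG in the same library differed by a median of 12.2 percentage points. How deeply a site was read is not known here, except that the authors required 10 reads, and every site was given the same weight.

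Promoter means lay below 5% in 8 of the 10 genes, the exceptions being Ephb3 (11.3% over 51 sites) and Epha10 (6.92% at 1 site), and body means ran from 8.25% to 72.8%. In Epha7, a receptor that acts in the growth of cortical dendrites and in neural tube closure, the promoter mean over 61 sites was 0.603%, 0.944% and 1.59% in the STD mice and 1.87%, 1.91% and 0.407% in the ENR mice. Its body mean over 84 sites was 10.3%, 8.32% and 7.30% in STD and 8.22%, 9.68% and 5.70% in ENR. Body values lay above promoter values in every mouse, and the groups overlapped in both. Ephb2, which binds NMDA receptors at the synapse and acts in excitatory synapse formation, had promoter means between 1.32% and 1.84% over 81 sites. At the other end, Epha2, best known from epithelia and the lens, had a promoter mean of 1.28% ± 0.417 (SD, n = 6 mice) over 45 sites and a body mean of 72.8% ± 3.83 over 23 sites.

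**Figure D1:**
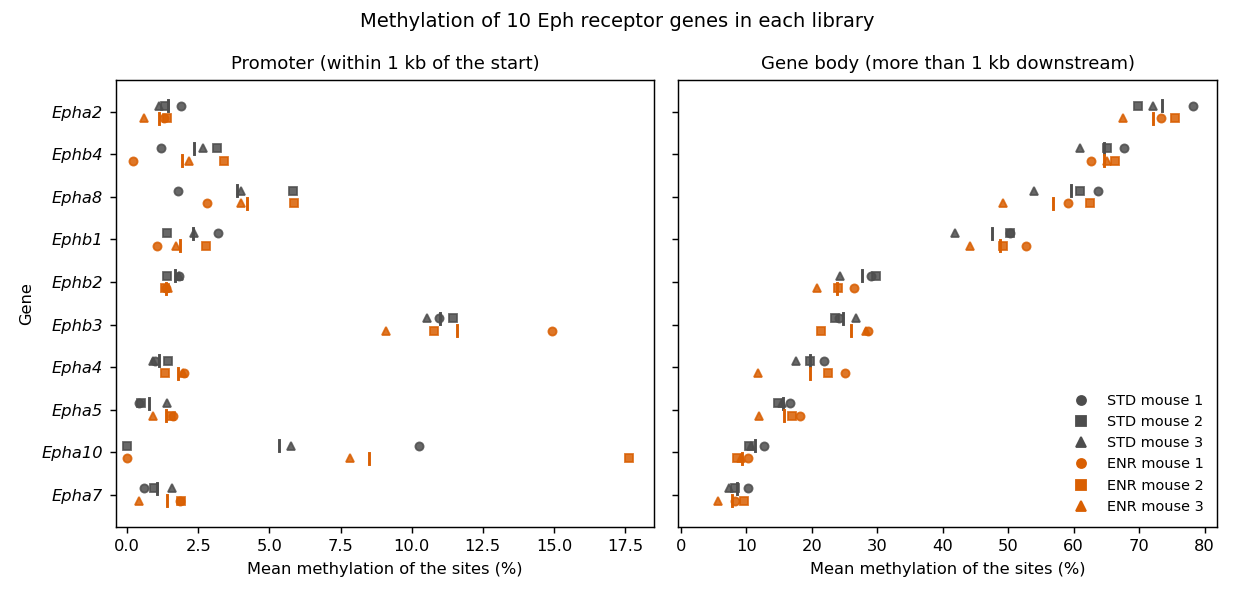
Mean methylation (percent) of each gene's promoter sites (left) and body sites (right), with the genes in order of body level. Each point is 1 mouse, vertical ticks are group means (n = 3 per group), and the 2 panels have different scales. Promoter means of 7 genes lie between 1.06% and 2.14% on average, while body means run from 8.25% in Epha7 to 72.8% in Epha2.

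The promoter means of Epha5, Epha7, Epha2, Epha4, Ephb2, Ephb1 and Ephb4 lay, in this order, between 1.06% and 2.14%, and the ranges over the 6 mice overlapped between every pair of neighbours. Epha8, an axon guidance receptor, followed with 4.05% ± 1.61 over 10 sites, and the single Epha10 site read 10.3%, 0% and 5.75% in STD and 0%, 17.7% and 7.84% in ENR. The Epha10 value thus ranged over 17.7 points among the 6 mice. Ephb3 had the highest promoter mean, 11.3% ± 1.95 over 51 sites. Epha10 is the member without an active kinase, and Ephb3 is known for placing cells along the intestinal crypt and, with Ephb1 and Ephb2, for dendritic spines.

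Body means, from low to high, were those of Epha7 (8.25%), Epha10 (10.3%), Epha5 (15.7%), Epha4 (19.7%), Ephb3 (25.4%), Ephb2 (25.7%), Ephb1 (48.1%), Epha8 (58.2%), Ephb4 (64.6%) and Epha2 (72.8%). The only neighbours in this order whose ranges over the 6 mice did not overlap were Ephb2 and Ephb1, which were 22.4 ± 3.20 points apart and in this order in 6 of 6 mice. Ephb3 and Ephb2 took this order in 3 of 6 mice. The bodies were sampled at few of their CpGs, and how far the order depends on which parts were read was not tested. The median of the 10 body means was 25.6%, against 38.2% over 11633 genes with at least 5 body sites, and the median of the 9 promoters with at least 5 sites was 1.53%, against 1.69% over 16435 genes.

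The body mean exceeded the promoter mean in 6 of 6 mice for 9 of the 10 genes. Among 7451 genes with at least 5 sites in each part, 82.3% had the higher body mean in all 6 mice. The difference in these 9 genes ran from 7.03 ± 1.62 points in Epha7 and 14.1 ± 3.07 in Ephb3 to 62.5 ± 2.62 in Ephb4 and 71.5 ± 3.46 in Epha2, each with an exact two-sided sign-flip permutation p of 0.03125, the smallest that 6 mice allow, and not adjusted over the genes. In Epha10 it was 3.38 ± 7.18 points, higher in the body in 5 of 6 mice (exact sign-flip permutation p = 0.281). That difference rested on 1 promoter site and turned to -34.2 points when sites within 1 kb of any annotated transcript start were counted as promoter. The median over the 9 members with at least 5 sites in each part was 24.2 points, the value of Ephb2, against 30.7 points over the 7451 genes. Body minus promoter differed between STD and ENR by between -5.10 points in Epha10 and 1.73 points in Ephb1, with an exact permutation p of 0.3 or more in each of the 10 genes.

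**Figure D2:**
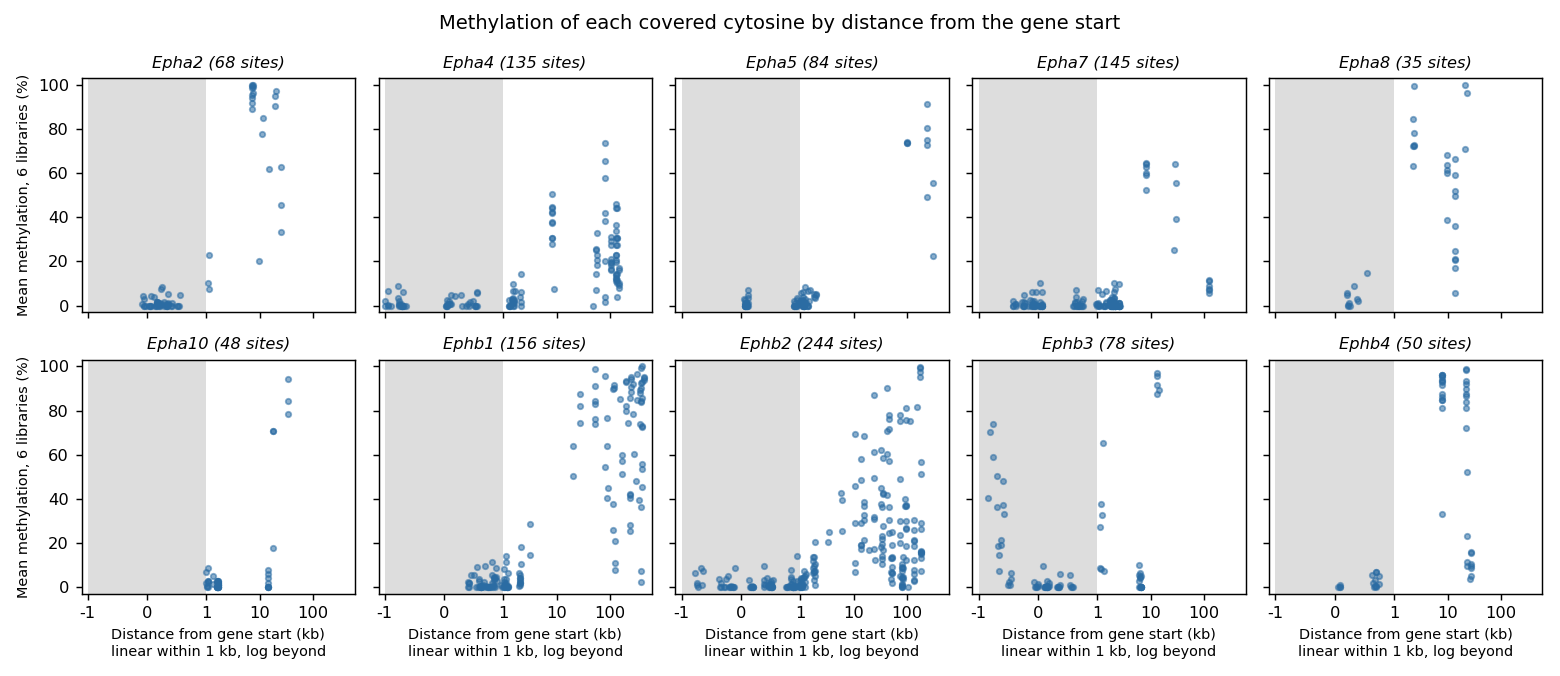
Mean methylation over the 6 mice (percent) of each covered site against its distance from the gene start (kb, linear within 1 kb of the start and logarithmic beyond, upstream negative), 1 panel per gene with the promoter shaded. Sites near the start lie at the bottom in all panels except for the upstream part of Ephb3, and high values begin at different distances in different genes.

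Low methylation extended past the promoter by different distances. Pooled over the sites of all members, the mean was 13.6% from 1000 to 501 bp upstream and 1.36% in the 500 bp before the start. It was 1.34% in the 500 bp after the start, 1.77% from 501 to 1000 bp, 3.56% from 1001 to 2000 bp and 12.4% from 2001 to 5000 bp. It then stood at 47.3% from 5001 to 20000 bp and at 43.3% beyond, and this shape was seen in each mouse. Not every gene had sites in every bin, so the steps also mix genes. The upstream bins held sites of 3 and 4 genes, that from 2001 to 5000 bp 5 genes and the next 9. From 2001 to 5000 bp, Epha7 gave 34 of 62 sites at a mean of 1.58%, the lowest, and 7 Epha8 sites averaged 77.6%, the highest. The first downstream site with a mean above 50% lay 1295 bp from the start in Ephb3, 2226 bp in Epha8, 7273 bp in Epha2 and 7773 bp in Ephb4, the receptor of venous endothelium. It lay 19795 bp from the start in Ephb1 and 100171 bp in Epha5, a receptor of topographic axon maps. These distances depend on where sites were read. In Epha5, for example, the 74 sites before that point averaged 1.67% and the table held none between 2 kb and that point.

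**Figure D3:**
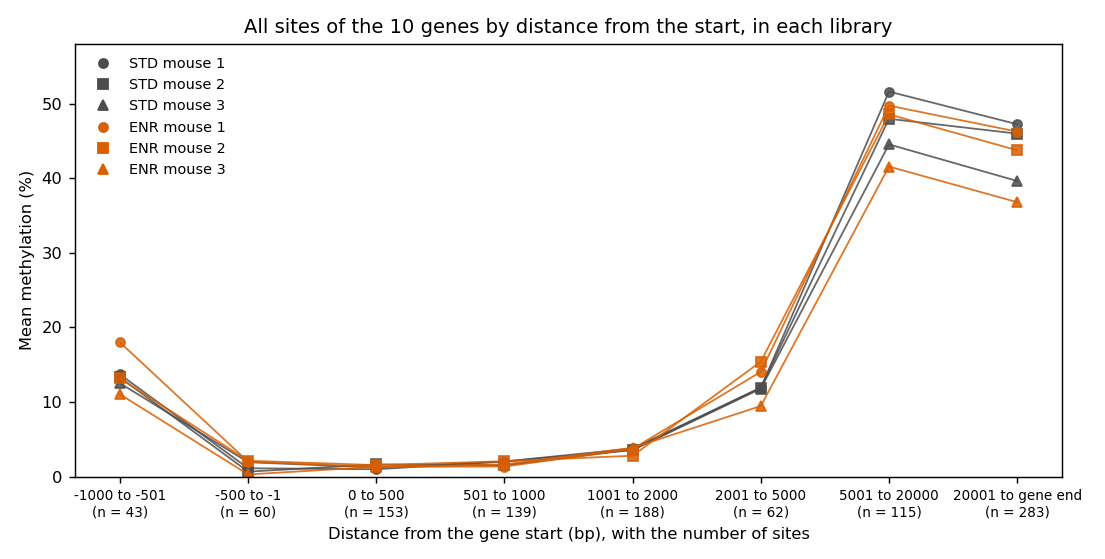
Mean methylation (percent) of all sites of the 10 genes in bins of distance from the gene start (bp), 1 line per mouse, with the number of sites in each bin below the axis. From 500 bp upstream to 2 kb downstream the 6 lines lie within 2 points of each other, in the bin farthest upstream they spread from 11.0% to 18.0%, and beyond 5 kb ENR mouse 3 is the lowest and STD mouse 3 the next lowest.

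Most of the body sites read in Epha7, Epha10 and Epha5 were nearly unmethylated. In Epha7, 74 of 84 body sites had means below 20%, in Epha10 42 of 47 and in Epha5 38 of 48, against 2 of 23 in Epha2 and 2 of 25 in Epha8. Of the 47 Epha10 sites, 33 lay 1001 to 2000 bp from the start, and whether these count as promoter or body depends on the annotation used. In Epha5 the 38 sites below 20% all lay within 1972 bp of the start, and the 10 sites beyond 20 kb averaged 66.9%. In Epha10 the 25 sites between 1351 and 1671 bp averaged 1.17%, while 3 coding sites near 33 kb averaged 85.7% ± 7.82. In Epha7 the 34 sites from 2001 to 5000 bp averaged 1.58%, the 6 coding sites at 8.0 to 8.1 kb averaged 60.6% ± 14.2, and the 10 sites beyond 20 kb averaged 23.6%. Epha4, which binds both classes of ephrin and acts in the retraction of dendritic spines, had no body site with a mean above 80%, and 50 of 88 were below 20%. In Ephb2, 90 of 163 body sites were below 20% and 8 above 80%, whereas in Ephb1, which acts in neural progenitors of the hippocampus, 35 of 108 were above 80%.

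Over the family, coding sequence in the bodies had a higher mean than introns, 56.4% at 87 coding sites against 26.1% at 526 intronic sites. Coding sites had the higher mean in 9 of the 10 genes, on a single coding site in Epha8, and Epha5 was the exception, with 2.0% at 7 coding sites against 18.1% at 41 intronic sites. The genes also held different shares of the coding sites, so the pooled means mix differences between genes with those between coding sequence and introns. Within a gene, coding and intronic sites could also lie at different distances from the start. In Epha7 the nearest coding site lay 8044 bp from the start, while the 34 sites from 1001 to 2000 bp, all intronic, averaged 1.2%. The part of distance in this comparison was not tested. Body sites in CpG-rich surroundings (201 bp with at least 50% GC and at least 0.6 times the CpGs that base composition predicts) averaged less than the other body sites, and 156 of 195 were below 20% against 207 of 453. The order was the opposite in 4 of the 9 genes with both kinds of site. In Epha2 the 10 CpG-rich body sites averaged 90.1% ± 5.13 and the 13 others 59.4% ± 4.02, and in Ephb4 11 of 12 CpG-rich body sites were above 80%. In Ephb3 the 5 CpG-rich sites averaged 75.6% and the 22 others 14%, and in Epha4 the means were 22.6% and 19.0%. In Epha7, Epha5 and Epha10 all CpG-rich body sites, 57, 22 and 30, were below 20%, and these made up most of the 195.

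Ephb3 was the member with methylation inside the promoter window. Its 14 sites from 1000 to 501 bp upstream, in the stretch printed above, averaged 38.1%, 37.3% and 34.0% in STD and 50.4%, 37.0% and 29.96% in ENR. ENR held both the highest and the lowest mouse. The 9 sites of the 500 bp nearest the start averaged 1.82% and the 23 sites of the 500 bp after it 1.03%. Single sites of the upstream stretch ranged from 7.33% to 73.7%, and 10 of the 51 promoter sites of Ephb3 had a mean above 20%, against 0 in each of the other 9 genes. The highest promoter site elsewhere had a mean of 14.7%, in Epha8.

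ENR and STD mice had close levels at the 10 genes, and no member passed the limma test over all genes for the whole window, the promoter or the body (0 of 20863, 16415 and 11630 genes called at an adjusted p under 0.05, with 3.7%, 4.4% and 3.34% at an unadjusted p under 0.05). The largest difference in a body was in Ephb2, with 29.02%, 29.8% and 24.2% in STD and 26.4%, 24.0% and 20.9% in ENR. ENR mouse 1 lay above STD mouse 3, so the groups overlapped. ENR was lower by 3.89 points (27.7% ± 3.001 against 23.8% ± 2.79, SD, n = 3 each), with an exact two-sided permutation p of 0.2, where 0.1 is the smallest that 3 against 3 allow, and a limma adjusted p of 1.00. Without ENR mouse 3 the difference was -2.44 points.

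The groups did not overlap in the body of 1 gene, Epha10, and 7.66% of all genes tested had bodies that did not overlap. The same gene was the only one to separate over the whole window, against 8.34% of all genes tested. Its body read 12.7%, 10.4% and 10.7% in STD and 10.2%, 8.59% and 9.20% in ENR. The lowest STD mouse and the highest ENR mouse were thus less than a point apart. The difference was -1.94 points (exact permutation p = 0.1, limma adjusted p = 1.00) and stayed negative without each mouse in turn (-2.37 to -1.24 points). With any transcript start counted as a promoter it was -1.07 points (exact permutation p = 0.3). Among the 5 tiles of 1 kb with at least 3 sites in this gene, 3 were lower and 2 higher in ENR. Groups did not overlap in 2 of the lower ones, which are given after their values were seen. Over the 10 genes 5 of 83 such tiles did not overlap, against 8.86% of all tiles. The 2 in Epha10 were the unmethylated stretch of 25 sites (2.17%, 1.39% and 1.73% in STD, 0.843%, 0.211% and 0.698% in ENR) and 3 intronic sites near 17.7 kb (66.3%, 53.9% and 61.2% in STD, 39.8%, 45.8% and 51.5% in ENR). In the other 3 tiles of Epha10 the groups overlapped, with differences of -8.67, 0.264 and 1.15 points.

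The other bodies differed by between -2.65 points in Epha8 and 1.27 points in Ephb1, with overlapping groups and exact permutation p values of 0.6 or more. Without ENR mouse 3 the Epha8 difference was 1.23 points, and without STD mouse 3 the Ephb1 difference was -1.49 points. In Epha4 the body mean was 21.9%, 19.7% and 17.5% in STD and 25.1%, 22.5% and 11.7% in ENR, so that ENR held both ends of the range and the difference was 0.07 points. Promoter differences with at least 5 sites ran from -0.459 points in Ephb1 to 0.666 points in Epha4, and in none did the groups separate, against 9.56% of all genes tested. Over the 10 bodies 5 were lower and 5 higher in ENR, with a median difference of -0.351 points, beside -0.539 points over all genes. Over the 9 promoters the median difference was 0.352 points, beside -0.0336.

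ENR mouse 3 had the lowest body mean in 6 of the 10 genes, and STD mouse 3 in 2. Over all 890041 sites these libraries had the lowest means as well, 21.3% and 22.5%, against 23.9% to 24.3% in the other 4. The part of this in the gene differences was not tested. With the libraries scaled to a common mean, the differences in the bodies ran from -3.34 points in Ephb2 to 2.34 points in Ephb1, and that of Epha2 changed sign (0.29 points).

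**Figure D4:**
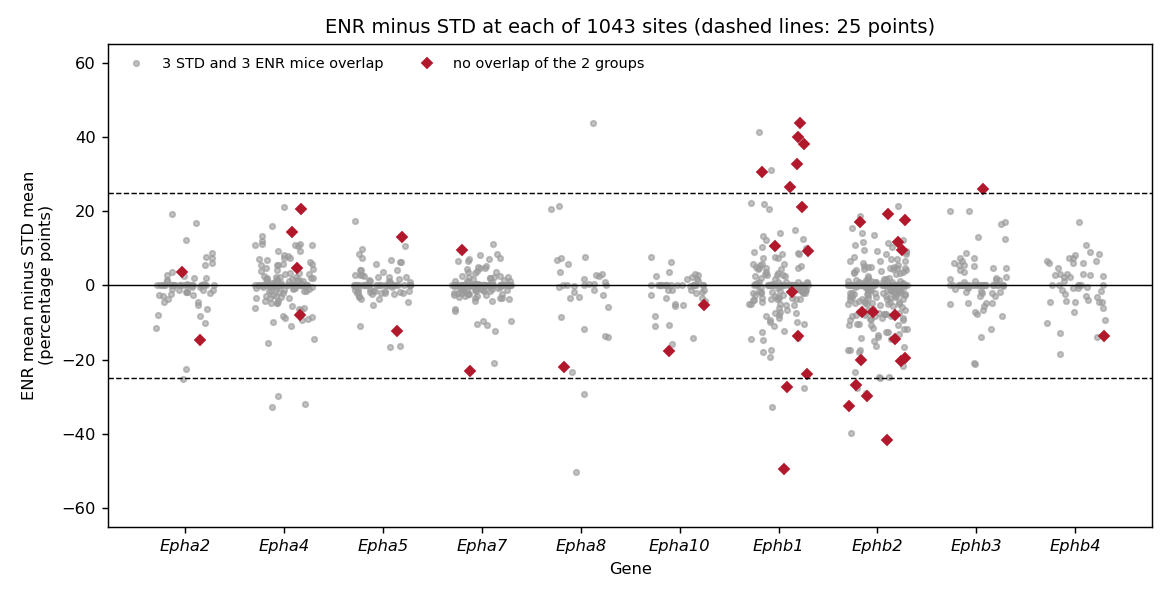
ENR mean minus STD mean (percentage points) at each of the 1043 sites, by gene. Red diamonds are sites whose 3 STD and 3 ENR values did not overlap, grey points the other sites, and dashed lines mark 25 points. Most sites lie near 0, and the sites beyond the lines are mainly in Ephb1 and Ephb2.

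At single CpGs, 28 of the 1043 sites differed by more than 25 points between the group means. That is 2.69% of the sites, against 1.94% of all sites in the table. Of the 28, 18 were lower and 10 higher in ENR, and over all sites 1.23% and 0.706% were. The majority turned without ENR mouse 3, to 11 lower and 19 higher. Among sites with a mean between 20% and 80%, 11.3% of 203 member sites passed the limit, against 11.0% of all such sites. The 28 sites were 27 in bodies and 26 in introns, and none was in coding sequence. No site passed limma with a difference over 25 points (0 of 615152 sites with any variation; the smallest adjusted p was 0.852), and 25 of 764 member sites had an unadjusted p under 0.05, or 3.27% against 2.68% of all sites tested. Groups did not overlap at 45 member sites, 4.31% against 3.99%, and 13 of the 28 sites over 25 points were among them, beside 7209 of the 17268 sites over 25 points in the table. Sites that met both conditions were thus 13 of 1043 here and 0.81% of the table.

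Ephb1 and Ephb2, which had 156 and 244 of the 1043 sites, held 20 of the 28. As a share of the sites of each gene, 8.57% were over 25 points in Epha8, 7.69% in Ephb1 and 3.28% in Ephb2. Ephb1 had 12, of which 8 were higher and 4 lower in ENR, and all were intronic. All 12 were among the 35 Ephb1 sites with a mean between 20% and 80% (34.3%, against 11.0% of all such sites). Ephb2 had 8, all lower in ENR, of which 7 were intronic. Of the 65 Ephb2 sites with a mean between 20% and 80%, 4 passed the limit (6.15%). Epha4 had 3 lower, Epha8 2 lower and 1 higher, Epha2 1 lower and Ephb3 1 higher, while Epha5, Epha7, Epha10 and Ephb4 had none. The counts moved with single mice. Ephb1 had 4 higher and 7 lower sites without STD mouse 3, 7 of each without ENR mouse 1, and 9 higher and 1 lower without ENR mouse 3. Ephb2 had 4 lower sites without ENR mouse 3 and 14 without STD mouse 3. Of the 28 sites, 6 stayed beyond 25 points in the same direction without each mouse in turn, and 4 of these were in Ephb1. These 4 included the 3 sites of the window chr9:101955036-101955113, which lay on the same strand and stand for a single place. The 12 Ephb1 sites also included both strands of the same CpG.

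Single mice at an extreme value weighed on some of the differences. At an Epha4 CpG 54153 bp from the start, STD mice read 6.25%, 20% and 100% and ENR mice 28%, 0% and 0%. The difference of -32.8 points was -3.79 points without STD mouse 3. The Epha8 site 2357 bp from the start had the largest difference of all, -50.3 points, with 100%, 92.9% and 100% in STD and 42.1%, 100% and 0% in ENR. There 2 ENR mice were low, and the difference stayed between -76.6 and -26.6 points without each mouse in turn. Groups overlapped at both sites, which were chosen after their values were seen.

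**Figure D5:**
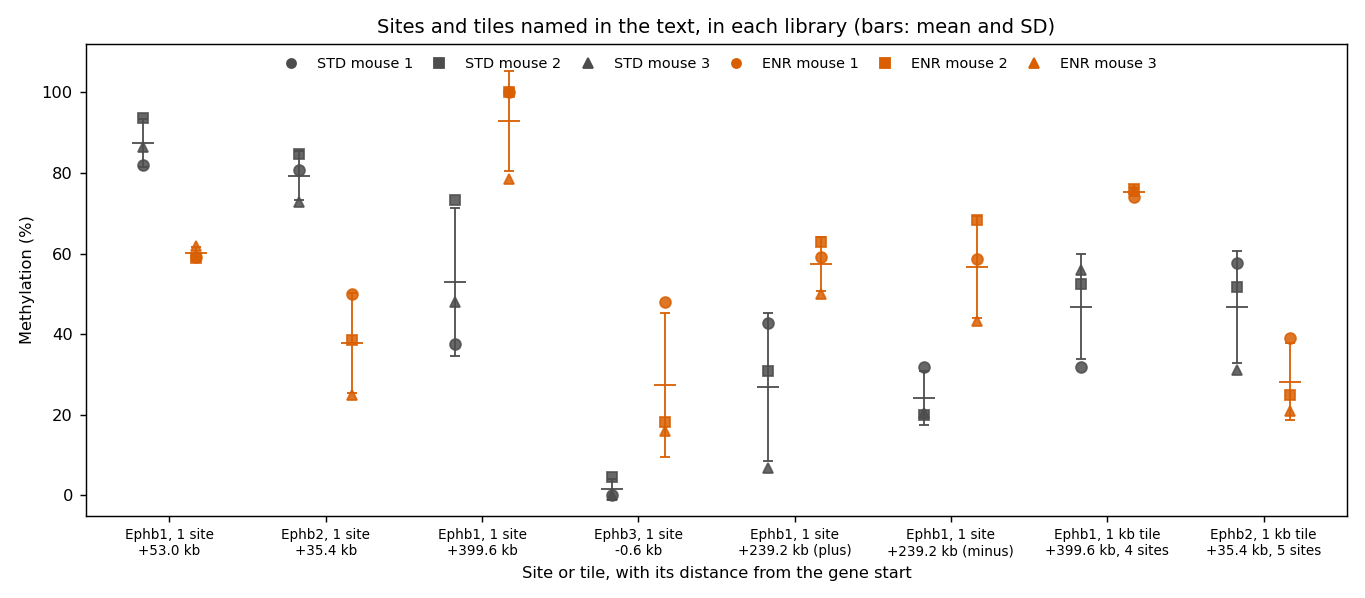
Methylation (percent) in each mouse at 4 sites and 2 tiles named by rule, and at both strands of 1 Ephb1 CpG chosen after its values were seen, with their distances from the gene start. Points are mice, and bars show the mean and SD of each group (n = 3). STD and ENR do not overlap at the 6 sites and the Ephb1 tile, and they overlap at the Ephb2 tile.

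The 4 sites below were named by rule, as those over 25 points without overlap and with the lowest limma p, at most 1 per gene and direction. The first was the Ephb1 CpG at chr9:102301647, in an intron 53046 bp from the start. It read 82.0%, 93.8% and 86.5% in STD and 59.3%, 58.8% and 62.0% in ENR. Within each group the mice lay close together, and the groups were 27.4 points apart (87.4% ± 5.94 against 60.03% ± 1.72, limma p = 0.00673 unadjusted, adjusted p = 0.852, exact permutation p = 0.1). The only other site within 100 bp differed by -3.94 points.

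The Ephb2 CpG at chr4:136800630, in an intron 35358 bp from the start, read 80.7%, 84.6% and 72.7% in STD and 50%, 38.5% and 25% in ENR. All 3 ENR mice lay well below all STD mice, at a difference of -41.5 points (adjusted limma p = 0.852, exact permutation p = 0.1) that ran from -47.6 to -35.1 points without each mouse in turn. The 4 other sites within 100 bp were lower in ENR as well, by 12.8 points on average. The 1 kb tile with these 5 sites, which was also the tile with the largest difference in Ephb2, averaged 57.6%, 51.7% and 31.2% in STD and 39.0%, 24.8% and 21% in ENR, so over the tile the groups overlapped (-18.6 points, exact permutation p = 0.2).

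The Ephb1 CpG at chr9:101955093, in an intron 399600 bp from the start, was the site named for a higher level in ENR. It read 37.5%, 73.3% and 48% in STD and 100%, 100% and 78.6% in ENR, 39.9 points higher (exact permutation p = 0.1). Both other sites of the printed window were higher in ENR too, and the 3 together averaged 30.6%, 53.3% and 55.3% in STD and 87.6%, 85.7% and 85.2% in ENR. The 1 kb tile around them held 1 more site, where the groups overlapped and ENR minus STD was -5.41 points. The tile had 46.8% ± 13.01 in STD and 75.2% ± 1.05 in ENR. It was the only one of the 83 tiles with at least 3 member sites to differ by more than 25 points (28.4 points, exact permutation p = 0.1, limma p = 0.00947 unadjusted and 1 adjusted), and 0.46% of all tiles did so. Without STD mouse 1 its difference was 20.99 points.

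A CpG of Ephb1 239237 bp from the start, chosen after its values were seen, was read on both strands. The plus strand gave 42.9%, 30.8% and 6.82% in STD and 59.1%, 63.0% and 50% in ENR, and the minus strand 32.0%, 20% and 20.5% in STD and 58.6%, 68.3% and 43.2% in ENR. Both strands were higher in all ENR mice, by 30.5 and 32.6 points. The 5 sites of the printed window together averaged 28.1% ± 18.3 in STD and 43.1% ± 11.7 in ENR, with overlap. Of the 25 member CpGs read on both strands with a mean between 20% and 80%, 14 had differences of the same sign on both.

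The site named in Ephb3, at chr16:21204106 and -649 bp from the start, lies in the printed upstream stretch. It read 0%, 4.55% and 0% in STD and 48%, 18.2% and 16% in ENR, 25.9 points higher on average (exact permutation p = 0.1, limma adjusted p = 0.852) and 15.6 points higher without ENR mouse 1. Of the 9 other sites within 100 bp, 6 were higher in ENR, and their mean difference was 4.42 points.

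The tiles with the largest difference in the other genes had overlapping groups, except in Epha10. ENR minus STD was -17.8 points in Epha7, -8.35 in Epha2, -6.63 in Epha8 and -3.13 in Ephb4, and 5.10 points in Epha4, 6.30 in Epha5 and 7.81 in Ephb3. The Epha7 tile, 3 intronic sites near 29 kb, read 72.5%, 67.7% and 45.6% in STD and 53.8%, 58.8% and 19.7% in ENR. Here mouse 3 of each group was the lowest of its group, and the difference was -5.62 points without ENR mouse 3. Single mice also moved the differences of the other 6 tiles by more than 1.5 times. Without 1 mouse at a time they ran from -12.4 to -4.65 points in Epha2 (smallest without STD mouse 2) and from 0.312 to 15.3 points in Epha5 (smallest without ENR mouse 2), and those of Epha4, Ephb3, Epha8 and Ephb4 changed sign.

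None of the other pathway genes tested passed the limma test. Of the 4 other Eph receptor genes, Epha1 had no site, and Epha3, Epha6 and Ephb6 had promoter means of 2.26%, 2.01% and 0.724%. Their body means were 23.6%, 85.7% and 95.6%, the last over only 4 sites. All 8 ephrin genes had sites, with 0 of 8 called over the whole window and a median difference of -0.337 points, and so did 15 effectors and partners, with 0 of 15 called and a median of -0.452 points, beside -0.184 over all genes. The largest ephrin differences were in Efnb1, on the X chromosome, and went opposite ways. They were -14.98 points over 26 promoter sites and 26.8 points over 8 body sites, with overlapping groups in both (exact permutation p = 0.4 and 0.2). Efnb1 is named after its values were seen. By the distance between promoter and body means, the genes nearest to the median Eph receptor were Epha3, Fyn, a Src family kinase downstream of EphA receptors, and Abl1, a kinase bound by Eph receptors. Groups did not overlap in 1 of the 8 ephrin promoters and in 1 of the 13 effector promoters with at least 5 sites, against the 9.56% of all promoters given above. Both are named after their values were seen. The 6 promoter sites of Efnb3, an ephrin of the forebrain, averaged 0.556%, 7.09% and 3.45% in STD and 9.30%, 9.34% and 12.0% in ENR. The 31 promoter sites of Vav2 averaged 1.58%, 0.813% and 0.468% in STD and 2.22%, 1.94% and 1.58% in ENR (limma adjusted p = 0.989 for each). In Vav2 the highest STD mouse and the lowest ENR mouse were equal as rounded here.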

How the data were processed

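RRBS libraries of 3 STD and 3 ENR mice were compared. According to the submitters' processing notes, reads were trimmed with Trim Galore 0.4.0 and cutadapt 1.8.1, aligned to mm10 with Bismark 0.16.1 and summarised with methylKit 1.5.2; the methods of the study give partly other versions. Cytosines with at least 10 reads were kept. The deposited table gives the percent of methylated reads per cytosine and library, made by the authors, without gaps, and 0 of its value columns were left unused. Read numbers were not used here, so neither depth nor counting error per site is known.

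Site percentages were averaged per mouse over the whole window, promoter and body of each gene. ENR minus STD was tested by the exact two-sided permutation test over 20 regroupings, body minus promoter by the exact sign-flip test, and all genes with at least 5 sites in a part, all varying sites and all 1 kb tiles with at least 3 sites by limma 3.58.1 with a variance trend (R 4.3.3), adjusted by Benjamini-Hochberg over each table. The limma script was tested on simulated data. Because the files held percentages, the regression on read numbers of the study could not be run.

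All 10 genes are named. Named sites are the 3 with the lowest limma p per direction, at most 1 per gene, among those over 25 points without overlap (fewer qualified), and named tiles those with the largest difference, the lowest or the highest mean per gene. Positions matched a CpG of the GRCm38.p6 reference at 890021 of 890041 sites. The genes, lists and tests were chosen with earlier results of these data known. Alternatives were other promoter limits, merged strands, medians over sites, scaled libraries, other size limits, tile sizes and site minimums, fits without the trend or on the arcsine scale, a replicate block, and leaving out each mouse.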

Additional observations from a re-analysis of the deposited data

How the results depend on the processing

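No alternative made a difference between ENR and STD pass at a member, and the limits were set by 3 mice per group, unknown read numbers and the few CpGs read per gene. The directions of most small differences were not stable. With 1 mouse left out in turn, the whole-window differences (points) ran as follows: Epha2 -1.32 to 0.306, Epha4 -1.49 to 2.87, Epha5 -0.457 to 1.48, Epha7 -0.935 to 0.535, Epha8 -4.00 to 1.01, Epha10 -2.30 to -1.09, Ephb1 -1.17 to 2.34, Ephb2 -3.83 to -1.74, Ephb3 -0.685 to 1.92 and Ephb4 -1.27 to 0.922. Those of the promoters ran as follows: Epha2 -0.509 to -0.0914, Epha4 0.549 to 0.881, Epha5 0.394 to 0.895, Epha7 0.0959 to 0.846, Epha8 -0.678 to 1.33, Epha10 -1.41 to 7.41, Ephb1 -0.925 to -0.0244, Ephb2 -0.447 to -0.223, Ephb3 -1.05 to 1.87 and Ephb4 -1.15 to 0.45. Those of the bodies ran as follows: Epha2 -3.03 to 1.15, Epha4 -2.58 to 4.09, Epha5 -1.14 to 1.999, Epha7 -1.69 to 0.309, Epha8 -5.43 to 1.23, Epha10 -2.37 to -1.24, Ephb1 -1.49 to 3.55, Ephb2 -5.61 to -2.44, Ephb3 0.00615 to 3.58 and Ephb4 -1.71 to 1.65. Whole-window differences of Epha10 and Ephb2, promoter differences of Epha2, Epha4, Epha5, Epha7, Ephb1 and Ephb2, and body differences of Epha10, Ephb2 and Ephb3 kept their sign throughout.

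The body minus promoter difference without 1 mouse ran as follows: Epha2 70.5 to 72.4, Epha4 17.4 to 20.01, Epha5 14.2 to 15.4, Epha7 6.50 to 7.38, Epha8 52.6 to 56.0, Epha10 1.97 to 5.86, Ephb1 44.9 to 47.3, Ephb2 23.4 to 25.1, Ephb3 13.1 to 14.8 and Ephb4 61.7 to 63.3. With 5 mice the smallest exact sign-flip p is 0.0625, so no call was possible there by construction. With sites near any transcript start counted as promoter, Epha10 turned to -34.2 points and its promoter difference between groups to -10.3 points. With a promoter of 500 bp the Ephb1 promoter difference was 0.154 and the Ephb4 body difference -0.0375. With strands merged the Ephb3 promoter gave -0.198, the Epha5 body -0.0569 and the Ephb4 body -0.761. With scaled libraries the Ephb4 window gave 1.10 and the Epha2 body 0.29. The causes were not tested.

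With the median over sites in place of the mean, differences were 0 in the windows of Epha2, Epha5, Epha7, Epha10 and Ephb3, in all promoters but those of Epha8 and Epha10, and in the bodies of Epha7 and Epha10, where most sites read at or near 0%. They turned to -0.309 in the Epha4 window, 1.78 in the Ephb4 window, -0.479 in the Epha8 promoter, and 0.506, -0.665 and 2.54 in the bodies of Epha2, Epha5 and Epha8.

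Sites over 25 points numbered 30 to 44 without 1 mouse, 11 to 31 lower and 7 to 19 higher in ENR. More were higher than lower only without ENR mouse 3, which also gave the lowest total, 30. With a limit of 40 points there were 6, of which 3 were lower and 3 higher. The Epha7 tile ran from -26.0 to -5.62 points. Named tiles turned sign without ENR mouse 1 in Epha4 (-0.978 to 10.7 without 1 mouse) and Ephb3 (-0.871 to 22.6), without ENR mouse 3 in Epha8 (-16.2 to 3.86) and without STD mouse 1 or ENR mouse 3 in Ephb4 (-12.0 to 4.16). In the limma fit of all promoters, 1 gene that is no member passed without the variance trend (adjusted p = 0.0429) and 1 on the arcsine scale (adjusted p = 0.0073), against 0 in the fit reported; all other limma fits gave 0 calls, with 2.33% to 5.57% of features at an unadjusted p under 0.05.

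STD and ENR mice share replicate numbers from 1 to 3. The deviations of same-numbered mice from their group means correlated by 0.0552, 0.0319 and 0.125 over 615152 sites. Mouse 3 of each group correlated by -0.0820 to -0.059 with mice 1 and 2 of the other group. These are also the 2 libraries with the lowest means, and the cause was not tested. Not every mouse correlated best with its own number, so the numbers were not taken to pair the mice. With a replicate block the differences are the same by construction (Ephb2 body -3.89 and Epha10 body -1.94, exact p = 0.25 each over 3 pairs, the smallest possible), and limma gave 0 calls for genes, sites and tiles.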
